A study of Rattus norvegicus with 22 samples.

Results

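The 10 genes described here are encoded by the mitochondrial genome and make core subunits of the respiratory chain. They were picked by Ensembl ID, without regard to their values, from the prefrontal cortex RNA table. In complex I they are mt-Nd1 (ENSRNOG00000030644), mt-Nd2 (ENSRNOG00000031033), mt-Nd4 (ENSRNOG00000029707), mt-Nd5 (ENSRNOG00000029971) and mt-Nd6 (ENSRNOG00000029042). Complex III has mt-Cyb (ENSRNOG00000031766), complex IV has mt-Co1 (ENSRNOG00000034234), mt-Co2 (ENSRNOG00000030371) and mt-Co3 (ENSRNOG00000030700), and complex V has mt-Atp6 (ENSRNOG00000031979). All 10 were among the 29663 genes listed, and all 10 passed the filter on low values, with 15316 other genes. The rats were male Sprague-Dawley, and by its title the series concerns how a cannabinoid given in adolescence alters the first response to cocaine. Control, WIN, cocaine and WIN+cocaine had 3 RNA libraries each; WIN is taken here as the cannabinoid of the title, and the labels do not spell the name out. The labels give no ages, doses, time points or control injections. They also do not say that replicates are different rats, and p-values here reflect only library-to-library spread, which may be technical.

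The mitochondrial genome is a small circle, present in many copies per cell, that is transcribed from both strands into long precursors which are then cut into single RNAs. The heavy and light strand transcripts differ greatly in content: mt-Nd6 is the one protein gene read from the opposite strand to all the others. The encoded proteins sit in the inner mitochondrial membrane, where complexes I, III and IV pass electrons to oxygen and pump protons, and complex V uses the proton flow to make ATP. Cortical neurons depend on this supply for ion pumping at synapses, and these transcripts are among the most abundant in brain RNA.

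The reads behind each value could be recovered, because an FPKM (a gene's reads divided by its length and by the library's read total) moves in whole steps of 1 read. Library totals were 20853971 to 27679012 reads. The 10 genes took 1074585 to 1842316 reads of a library. The fewest reads for any of them were 8924, for mt-Nd6 in cocaine replicate 2, so counting error was at most 1.06% of a value. The coefficient of variation within a group was at least 4.22-fold the largest counting error in that group, except for mt-Co3 in WIN+cocaine, where it was 0.386% beside a counting error of 0.265%. The steps also give the gene lengths used by the authors: 955 bp for mt-Nd1, 1039 bp for mt-Nd2, 1378 bp for mt-Nd4, 1830 bp for mt-Nd5, 519 bp for mt-Nd6, 1143 bp for mt-Cyb, 1545 bp for mt-Co1, 684 bp for mt-Co2, 784 bp for mt-Co3 and 681 bp for mt-Atp6. The lengths of mt-Nd1, mt-Nd2, mt-Nd4 and mt-Co3 are not multiples of 3. Mammalian mitochondrial genes of this kind end in a partial stop codon that the poly(A) tail completes. Other IDs were not paired with symbols, so no cell type marker or nuclear respiratory chain gene was analysed here. In bulk tissue, fewer cells of a type and less RNA per cell cannot be told apart.

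By mean FPKM, 8 of the 10 were the most abundant transcripts in the table. On the FPKM scale, which is per length, mt-Co1 ranked first in all 12 libraries, with a mean of 13369, followed in all 12 by mt-Co3 (8843), mt-Atp6 (8135), mt-Co2 (7083) and mt-Cyb (5889). Next in mean FPKM came mt-Nd1 at 4621, mt-Nd2 at 3605 and mt-Nd4 at 3180, so that the 8 genes with the highest means in the whole table were all from this group. Members filled 8 of the first 8 ranks in each control library, 7 to 8 in WIN, 5 to 7 in cocaine, with 7 to 8 in WIN+cocaine. The remaining pair lay lower: mt-Nd5 had a mean of 1470.5 and ranked between 16 and 30, and mt-Nd6 had a mean of 1108 and ranked between 23 and 63. mt-Co1, the catalytic subunit of cytochrome c oxidase, thus stood 12.1-fold above mt-Nd6. The whole order of the 10 genes was the same in each of the 12 libraries. Between libraries, the ranges of neighbours overlapped, except those of mt-Co1 and mt-Co3 and those of mt-Nd4 and mt-Nd5.

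Together the 10 genes held 12.2%, 11.8% and 10.9% of all FPKM in control replicates 1, 2 and 3. They held 11.0%, 11.9% and 10.7% in WIN, 10.8%, 8.07% and 9.95% in cocaine, with 9.44%, 9.63% and 10.4% in WIN+cocaine. All 3 WIN+cocaine libraries lay below all 6 libraries without cocaine, as did cocaine replicates 2 and 3, whereas cocaine replicate 1 lay just above WIN replicate 3. The group means were 11.6% ± 0.682 in control, 11.2% ± 0.609 in WIN, 9.60% ± 1.39 in cocaine, with 9.83% ± 0.524 in WIN+cocaine (SD, n = 3). Cocaine minus control was -2.03 percentage points, and -1.27 without cocaine replicate 2, the library with the lowest share. WIN+cocaine minus WIN was -1.35 points, and WIN+cocaine minus control was -1.80. WIN minus control was -0.449 points, less than the pooled SD of 0.873 within groups. Leaving out control replicate 1 gave -0.170 and leaving out WIN replicate 3 gave -0.195. Omitting control replicate 3 gave -0.829, and omitting WIN replicate 2 gave -0.786. Because the share sums over chosen genes, it was not tested. The summed FPKM of the 10 genes averaged 62926 in control and 61186 in WIN, beside 52279.8 in cocaine and 52818 in WIN+cocaine. That of all other genes averaged 477748 in control and 485495 in WIN, beside 491285 in cocaine and 484636 in WIN+cocaine. The parts of the share thus went in opposite directions between control and cocaine. The parts are linked, since FPKM is divided by the library's read total and reads not taken by the 10 genes fall to the others. They need not mirror each other, because FPKM is also divided by gene length. Both parts were lower in WIN+cocaine than in WIN. How much of each difference this link accounts for was not tested. As shares of reads, which are not scaled to length, the mean of the controls was 6.61% and that of WIN 6.44%, beside 5.56% for cocaine and 5.59% for WIN+cocaine.

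**Figure D1:**
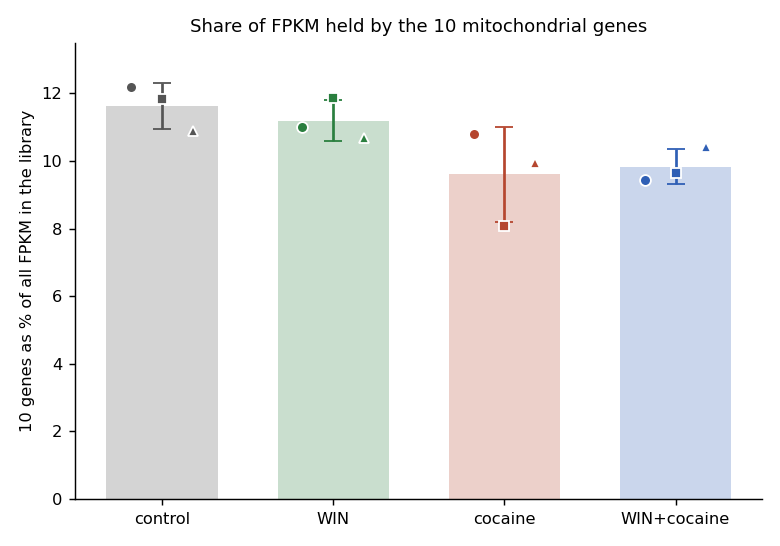
Percent of all FPKM in a library held by the 10 mitochondrial genes (y axis) in each treatment group (x axis); bars are means, error bars SD over 3 libraries, and circle, square and triangle are replicates 1, 2 and 3. The means of the groups with cocaine, 9.60% and 9.83%, lie below those of control and WIN, 11.6% and 11.2%, and the cocaine group is the most spread.

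The complex I genes encode the membrane arm of NADH dehydrogenase, where electrons enter the chain from NADH. mt-Nd1, at the junction with the arm that receives electrons, had an FPKM of 5263, 5022 and 4535 in control, 4883, 5607 and 4708 in WIN, 5001, 3481 and 4259 in cocaine, with 4196, 4057 and 4445 in WIN+cocaine. All 3 WIN+cocaine values lay below all control and WIN values, while cocaine replicate 1 lay among them. mt-Nd2, a proton-pumping subunit, had 4275, 3967 and 4050 in control, 4020, 4185 and 3352 in WIN, 3596, 2387 and 3578 in cocaine, with 3250, 3233 and 3367 in WIN+cocaine. Every library with cocaine lay below every control library for this gene, and WIN replicate 3 lay among the cocaine values.

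mt-Nd4, another proton-pumping subunit, had an FPKM of 3694, 3424 and 3362 in control, 3405, 3808 and 3103 in WIN, 3529, 2231 and 2899 in cocaine, with 2876, 2786 and 3048 in WIN+cocaine. Here too cocaine replicate 1 stood among the controls and replicate 2 far below. mt-Nd5, the pumping subunit at the far end of the arm, had 1700.4, 1717 and 1451 in control, 1598, 1602 and 1460.0 in WIN, 1618, 1135 and 1352 in cocaine, with 1326, 1235 and 1452 in WIN+cocaine. Its lowest control value, in replicate 3, was level with its highest WIN+cocaine value. mt-Nd6, the light strand gene, had 1284, 1229.9 and 1178 in control, 1243, 1396 and 1090.5 in WIN, 1137, 735 and 985 in cocaine, with 1044, 963 and 1007 in WIN+cocaine. It varied most of the 10 genes, with a highest value 1.90-fold above its lowest, and all 6 libraries with cocaine lay below all 3 controls. The library kit keeps strand, but no source states the strand setting of the counting, and opposite-strand reads over mt-Nd6 cannot be told apart from its own.

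The complex IV genes encode the core of cytochrome c oxidase, which hands electrons to oxygen. mt-Co1, which holds the site of oxygen reduction, had an FPKM of 15177, 14491 and 13297 in control, 13278, 14842 and 13897 in WIN, 14772, 10520 and 12444 in cocaine, with 12222, 11963 and 13523 in WIN+cocaine. The groups overlapped for this gene in all comparisons. mt-Co2, the subunit that takes electrons from cytochrome c, had 8399.6, 8418 and 7364 in control, 7793, 7898 and 6730.0 in WIN, 6904, 5063 and 6730.4 in cocaine, with 6396, 6526 and 6769 in WIN+cocaine. All libraries with cocaine lay below all controls, and WIN replicate 3 was level with cocaine replicate 3. mt-Co3, the third core subunit, had 10383, 9583 and 9339 in control, 9569.8, 10443 and 8459 in WIN, 9087, 6373 and 8209 in cocaine, with 8186, 8245 and 8236 in WIN+cocaine. The 3 WIN+cocaine values were nearly equal, with an SD of 31.7 beside 1385 in cocaine.

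Complexes III and V are represented by 1 gene each. mt-Cyb encodes cytochrome b, the subunit of complex III that oxidises ubiquinol. It had an FPKM of 6741, 6629.9 and 5647 in control, 5989, 6441 and 6359 in WIN, 5969.8, 4891 and 5798 in cocaine, with 5148, 5122 and 5927 in WIN+cocaine. It varied least, with a highest value 1.38-fold above its lowest. mt-Atp6, which forms part of the proton channel of ATP synthase, had 9838, 9190.0 and 8128 in control, 8606, 9615 and 8179 in WIN, 8449.8, 6318 and 7387 in cocaine, with 7042, 7439 and 7427 in WIN+cocaine. All WIN+cocaine values of mt-Atp6 lay below all control and WIN values. For all 10 genes the lowest of the 12 libraries was cocaine replicate 2, and the highest was control replicate 1, control replicate 2 or WIN replicate 2. mt-Atp6 and mt-Nd4 overlap short neighbouring reading frames in the mammalian mitochondrial genome, and no source used here states how shared reads were assigned.

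**Figure D2:**
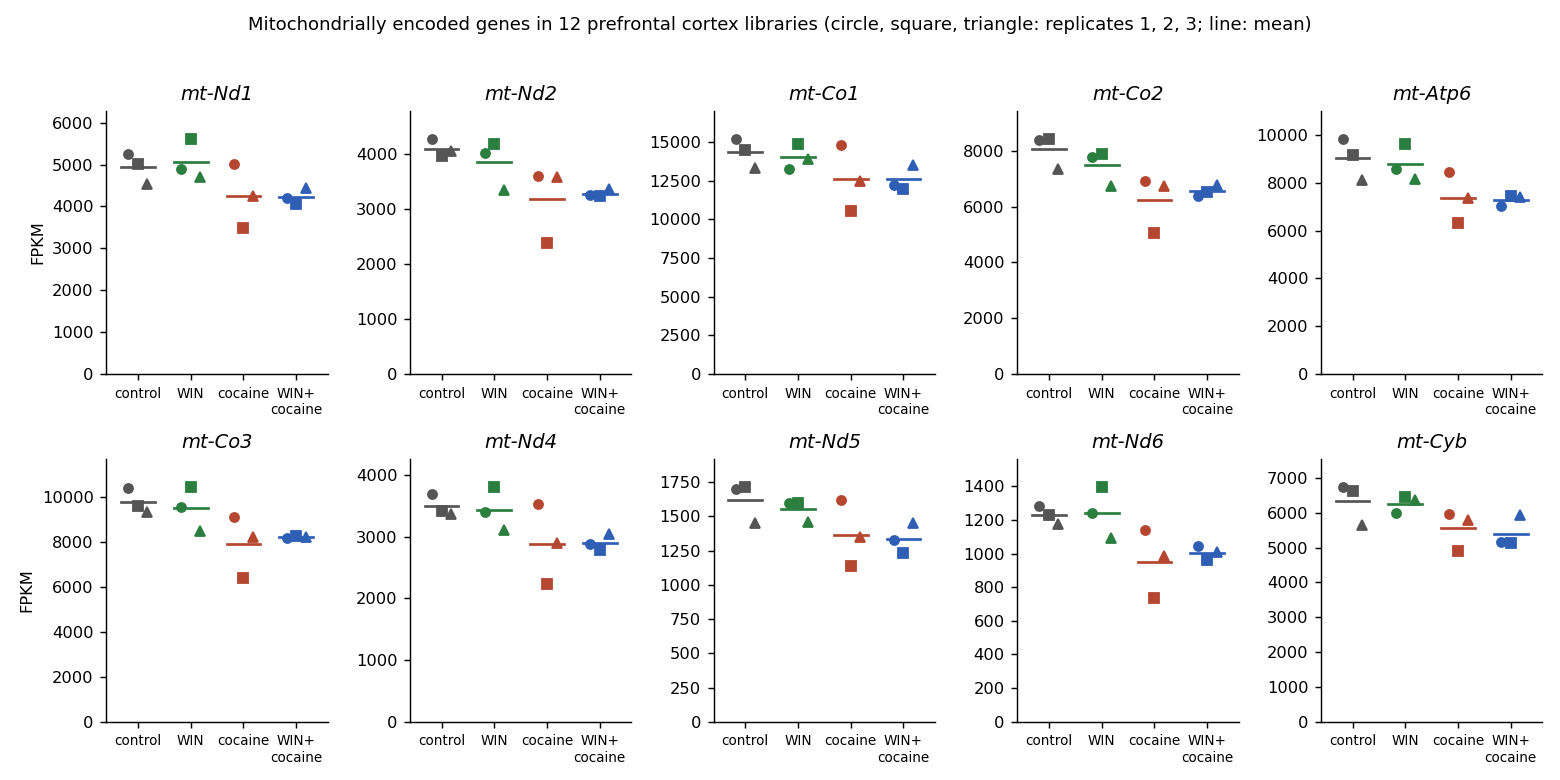
FPKM of each gene (y axes, from 0) in the 4 treatment groups (x axes); circle, square and triangle are replicates 1, 2 and 3 and the line is the mean of 3 libraries. In all 10 genes cocaine replicate 2 is the lowest library, and the means of cocaine and WIN+cocaine lie below those of control and WIN.

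Cocaine against control is the cocaine response without earlier cannabinoid. All 10 genes were lower in value in cocaine, beside 52.9% of all 15326 genes tested. The members' median difference was -0.30 on the log2(FPKM + 1) scale, beside -0.02 for all genes. Of all genes, 12.2% lay at or below the members' median. In limma with Benjamini-Hochberg adjustment, 0 of 10 passed an adjusted p of 0.05 (0% of all genes passed). At an unadjusted p under 0.05 there were 5 of 10, all lower, beside 31.1% of all genes in either direction and 16% lower. The cocaine means were 77.3% (mt-Co2) to 87.8% (mt-Co1) of the control means. The 5 were mt-Nd6, mt-Nd2, mt-Co2, mt-Co3 and mt-Atp6. The log2 difference was -0.39 for mt-Nd6, with an SE of 0.14 and an adjusted limma p of 0.0924. It was -0.39 with an SE of 0.15 for mt-Nd2 (adjusted limma p of 0.103) and -0.38 with an SE of 0.13 for mt-Co2 (adjusted limma p of 0.0781). For mt-Co3 it was -0.32 and for mt-Atp6 -0.30, each with an adjusted limma p of 0.12. The other members differed by -0.30 (mt-Nd4), -0.26 (mt-Nd5), -0.23 (mt-Nd1), -0.20 (mt-Co1) and -0.19 (mt-Cyb), with adjusted limma p from 0.176 to 0.298. In mt-Nd2, mt-Co2, mt-Co3 and mt-Nd6 the 3 cocaine values lay below all 3 controls, which was so for 4 of 10 members and 21.5% of all genes tested. Dropping cocaine replicate 2 cut the 5 members with p below 0.05 before adjustment to 1, beside 23.7% of all genes. The members' median was then -0.15. Dropping cocaine replicate 1 raised these 5 to 9 (25.5% of all genes). With control replicate 1 dropped there were 2 such members (28.9%), and with control replicate 2 dropped there were 3 (18.6%). The fit with no filter on low values had 1 such member (22.5%). The fit to only the control and cocaine libraries had 3 (32.3%). In that last fit 8.99% of all genes and 0 of 10 members passed the adjusted test. Quantile normalization, which gives equal values to genes of equal rank, left 5 members lower and put 5 at a difference of 0.

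Other abundant genes had another balance of directions in this comparison. Of the 20 most abundant other genes by mean FPKM, 8 were lower in cocaine, with a median log2 difference of 0.20, and of the 100 most abundant 46 were lower, with a median of 0.02. These genes were taken after the values of the members had been seen, and the difference between them and the members was not tested.

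WIN+cocaine against WIN is the cocaine response after cannabinoid exposure; it shares no library with the preceding comparison of cocaine and control. All 10 genes were again lower in value, with a median log2 difference of -0.22 beside 0.00 for all genes, and 0 of 10 passed the adjusted test (0% of all genes). The lowest was mt-Nd6 at -0.30 with an SE of 0.14, followed by mt-Atp6 at -0.27 with an SE of 0.12 and mt-Nd1 at -0.26 with an SE of 0.13. mt-Nd4 differed by -0.24, mt-Nd2 and mt-Nd5 by -0.22 and -0.22, mt-Cyb by -0.22, mt-Co3 by -0.20, mt-Co2 by -0.18 and mt-Co1 by -0.16. All 10 had an adjusted limma p of 0.975. After quantile normalization 3 were lower, 6 were at 0, and mt-Nd2 was higher by 0.051. In 7 of 10 all WIN+cocaine values lay below all WIN values, namely mt-Nd1, mt-Atp6, mt-Co3, mt-Nd4, mt-Nd5, mt-Nd6 and mt-Cyb, beside 2.94% of all genes tested. At an unadjusted p under 0.05 there was 1 of 10, mt-Atp6 (limma p of 0.0491), beside 3.76% of all genes in either direction and 1.2% lower. The limma spread is taken over all 4 groups, and the 10 members varied most in the cocaine group. The part of this spread in the count was not tested. Dropping cocaine replicate 2 raised this count to 5, beside 3.99% of all genes. Dropping cocaine replicate 1 gave 3 members, beside 4.29% of all genes. Dropping WIN replicate 3 gave 2 members, beside a larger 14.8% of all genes. The count fell to 0 on dropping control replicate 1 or 2, WIN replicate 1 or 2, or cocaine replicate 3. Dropping WIN+cocaine replicate 1 or 2 also gave 0. Beside these counts of 0, the share of all genes ran from 2.34% to 6.17%.

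WIN+cocaine was then set against control, a comparison that uses the control libraries of the first comparison and the WIN+cocaine libraries of the second. All 10 genes were lower in value, beside 50.5% of all genes. Their median was -0.27 beside -0.00 for all genes, of which 4.03% lay at or below the members' median. Of the 10, 0 passed (0% of all genes). mt-Nd2 differed by -0.32 with an SE of 0.15, mt-Atp6 by -0.31 with an SE of 0.12, mt-Co2 by -0.29 with an SE of 0.13 and mt-Nd6 by -0.29 with an SE of 0.14. The rest ran from -0.28 (mt-Nd5) to -0.19 (mt-Co1), and adjusted limma p ran from 0.617 to 0.677 over the 10. At an unadjusted p under 0.05 there were 4 of 10 (mt-Nd2, mt-Co2, mt-Atp6 and mt-Nd5) beside 7.91% of all genes in either direction and 2.45% lower, and 7 of 10 had all WIN+cocaine values below all controls beside 8.58% of all genes; mt-Co1, mt-Nd5 and mt-Cyb overlapped. The count of 4 at an unadjusted p under 0.05 was 0 without control replicate 1 (7.28% of all genes), control replicate 2 (3.69%) or WIN+cocaine replicate 1 (3.37%). It was 1 without WIN+cocaine replicate 2 (8.92%), and 2 without either WIN replicate 1 (7.99%) or WIN replicate 2 (7.45%). It reached 8 when cocaine replicate 2 was left out (8.03%). It was 8 when only the compared libraries were fitted (12.2%). After quantile normalization 3 members were lower and 7 were at 0.

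WIN against control, the cannabinoid without cocaine, showed smaller differences. The 10 genes differed by -0.11 (mt-Co2) to 0.03 (mt-Nd1) on the log2 scale, with 8 lower and 2 higher in value and a median of -0.04. This balance turned with single libraries and weights: 4 were lower without control replicate 1 (median 0.01), 4 without WIN replicate 3 (median 0.01) and 2 with library weights (median 0.03). All 10 were lower without control replicate 3 (median -0.09) or without WIN replicate 2 (median -0.09). By limma 0 of 10 passed (0% of all genes) and 0 of 10 had an unadjusted p under 0.05, beside 1.55% of all genes; adjusted p was 0.999 for all 10. The 95% intervals, not adjusted for the number of genes, ran from -0.41 at the lowest bound to 0.32 at the highest. The groups overlapped in all 10 genes, beside 2.75% of all genes lower and 3.18% higher without overlap.

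Among rats given cocaine, WIN+cocaine was compared with cocaine alone. The members differed by -0.04 (mt-Cyb) to 0.10 (mt-Nd6), 3 lower and 7 higher in value, with a median of 0.02 that equals that of all genes at this precision. By limma 0 of 10 passed (0% of all genes), 0 of 10 had an unadjusted p under 0.05 beside 10.6% of all genes, and the groups overlapped in all 10, beside 6.7% of all genes lower and 11.3% higher without overlap. The 95% intervals ran from -0.29 to 0.40. The direction turned with single libraries. Without cocaine replicate 2, 10 of 10 were lower in WIN+cocaine, with a median of -0.12, and without cocaine replicate 1, 0 of 10 were lower, with a median of 0.15. The median was -0.01 without WIN+cocaine replicate 3 and -0.01 after median ratio rescaling. The groups differed more in spread than in mean. The coefficient of variation over 3 libraries was 10.4% (mt-Cyb) to 22.5% (mt-Nd4) in cocaine and 0.386% (mt-Co3) to 8.47% (mt-Cyb) in WIN+cocaine; this difference in spread was not tested.

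The interaction term subtracts the cocaine difference in rats without WIN from that in rats with it. Its log2 values ran from -0.03 (mt-Nd1) to 0.20 (mt-Co2) with SEs of 0.16 to 0.21, and a median of 0.05 beside 0.02 for all genes. By limma 0 of 10 passed (0% of all genes) and 0 of 10 had an unadjusted p under 0.05, beside 9.02% of all genes. The smallest adjusted p among the members was 0.654, for mt-Co2. The 95% intervals ran from -0.42 to 0.61. The median was -0.08 without cocaine replicate 2, 0.19 without cocaine replicate 1, -0.00 without WIN replicate 3 and -0.03 with library weights.

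**Figure D3:**
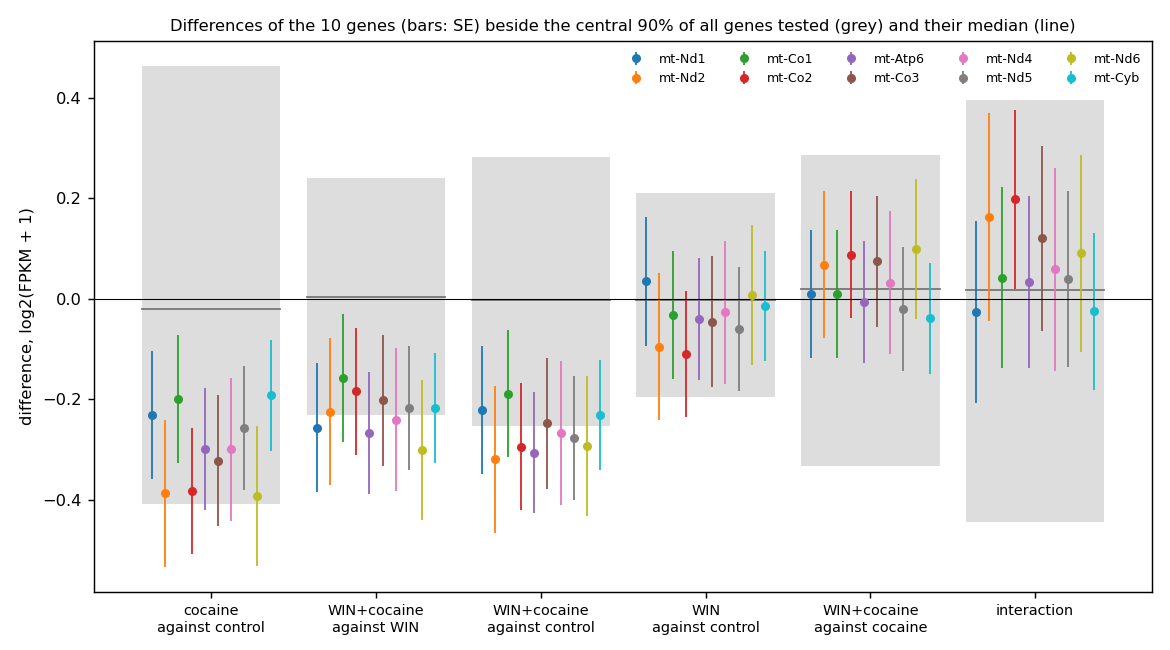
Differences in log2(FPKM + 1) (y axis) for each of the 10 genes, with SE bars from limma, in 6 comparisons (x axis); grey boxes span the central 90% of all 15326 genes tested and the grey line is their median. The points lie below 0 in the 3 comparisons of a group with cocaine against one without, with medians of -0.30, -0.22 and -0.27. For cocaine against control all 10 points lie inside the grey box, and for the comparisons of WIN+cocaine with WIN and with control some lie below it. The points lie around 0 in the other 3 comparisons, with medians of -0.04, 0.02 and 0.05.

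The 6 libraries with cocaine were also compared with the 6 without, as the average of the cocaine differences with and without WIN in the same fit; this comparison was added after the values had been seen. All 10 genes were lower in value, with a median log2 difference of -0.27 beside -0.01 for all genes. By limma 0 of 10 passed (0% of all genes), with adjusted p from 0.0859 (mt-Nd6) to 0.235 (mt-Co1), and 9 of 10 had an unadjusted p under 0.05, beside 25.5% of all genes in either direction and 11.8% lower. mt-Nd6 differed by -0.35 with an SE of 0.10, mt-Nd2 by -0.31 with an SE of 0.10, mt-Co2 and mt-Atp6 by -0.28 and -0.28 with SEs of 0.09, and mt-Co1 by -0.18 with an SE of 0.09. In mt-Nd1, mt-Atp6, mt-Co3, mt-Nd4 and mt-Nd6, 5 of the 6 libraries with cocaine lay below all 6 without. The share of all genes that did so was not computed. The 2 sets overlapped in all 10 genes, beside 0.254% of all genes lower without overlap. In all 10 genes the highest library with cocaine was cocaine replicate 1. The call changed without WIN replicate 3, the library with the lowest weight, 0.296, in limma's library weighting. Without it mt-Nd2, mt-Co2, mt-Atp6, mt-Co3 and mt-Nd6 passed, 5 of 10, with the smallest adjusted limma p of 0.0215 for mt-Nd6, and 21.4% of all genes passed as well. With library weights 7 of 10 passed, those 5 with mt-Nd1 and mt-Nd4, beside 18.3% of all genes.

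Summed over complex I or complex IV, the make-up of the 10 genes' summed FPKM varied much less than its total, which ran from 43134 to 66754. The 10 genes do not include every mitochondrially encoded subunit, nor the mitochondrial ribosomal RNAs. Complex IV genes held 50.4% to 51.9% of the members' summed FPKM over the 12 libraries and complex I genes 23.1% to 25.2%. By group, complex IV held 50.9% to 51.4% in control, 50.4% to 50.7% in WIN, 50.9% to 51.2% in cocaine and 51.7% to 51.9% in WIN+cocaine. All WIN libraries thus lay below the rest and all WIN+cocaine libraries above, a small separation that was not tested. The complex I ranges of the groups overlapped. Single genes shifted more against the others than these sums did. mt-Nd2 held 5.53% to 6.94% of the sum over the 12 libraries, and its FPKM was 0.227 to 0.305 of that of mt-Co1. mt-Co1 held 22.7% to 22.8% of the sum in the 3 controls and 23.2% to 24.6% in the cocaine libraries, which did not overlap them, and 23.2% to 24.5% in WIN+cocaine. In WIN it held 22.0% to 24.2%, a range that takes in all 3 controls and overlaps both cocaine groups. mt-Nd6 held 1.92% to 2.02% in control, 1.90% to 2.12% in WIN, 1.70% to 1.89% in cocaine, with 1.82% to 2.02% in WIN+cocaine. Set against the other 9 genes, mt-Nd6 stood at 1.96%, 1.97% and 2.06% in control and 1.93%, 1.73% and 1.87% in cocaine, beside 1.94% to 2.17% in WIN and 1.86% to 2.06% in WIN+cocaine. The cocaine values lay below the control and WIN values and overlapped those of WIN+cocaine. This ratio was not tested, and the limit on opposite-strand reads over mt-Nd6 applies to it. mt-Cyb held 9.68% to 10.4% in control and 9.94% to 11.3% in cocaine, which overlapped.

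**Figure D4:**
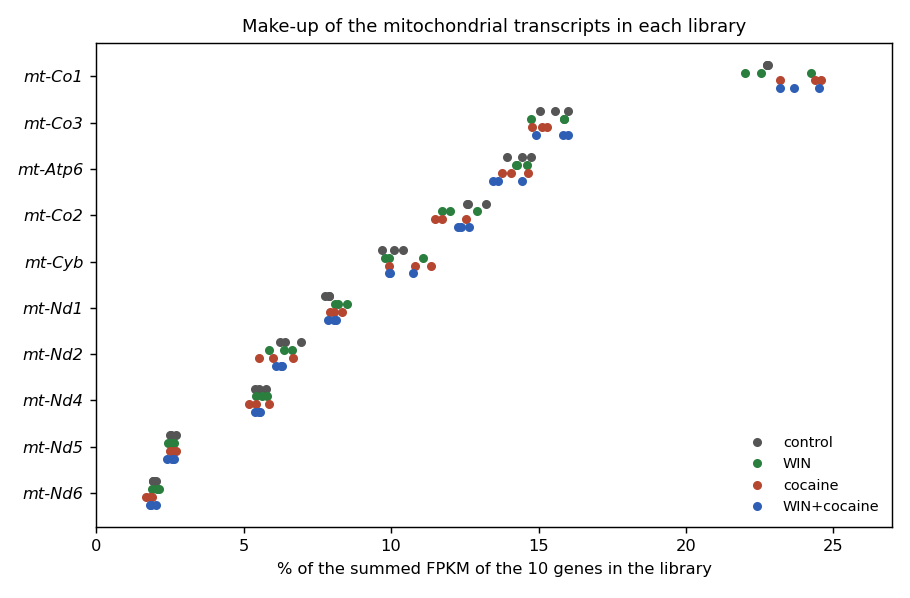
Percent of the summed FPKM of the 10 genes that each gene holds in a library (x axis), by gene (y axis, in order of mean FPKM); each point is 1 of 12 libraries, coloured by group. Each gene keeps its place, with mt-Co1 at 22.0% to 24.6% and mt-Nd6 at 1.70% to 2.12%.

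Across libraries the members moved together. Over the 12 libraries, which share their totals and groups, Pearson's r between the log2 values of a pair of members ran from 0.773 to 0.984 with a median of 0.922 over 45 pairs, and Spearman's rho had a median of 0.895. mt-Cyb was the least like the rest, with a median r of 0.841. Among the 15316 other genes tested, the pattern most like the members' mean was that of ENSRNOG00000009233, with r of 0.960 over 12 libraries and mean FPKM of 7.53 in control, 7.39 in WIN, 5.84 in cocaine, with 6.24 in WIN+cocaine. It was followed by ENSRNOG00000009332, with r of 0.943 and means of 18.1, 16.5, 12.9 and 13.6 in the same order. The most opposite were ENSRNOG00000024796, with r of -0.944 and means of 26.2, 27.2, 29.9 and 29.3, and ENSRNOG00000017422, with r of -0.943 and means of 15.4, 15.6, 17.1 and 16.5. In all, 10 other genes had an r above 0.9 and 20 below -0.9. These are descriptions over the same libraries that define the pattern.

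Values that could move with the libraries are given here once. Cocaine replicate 2 had 23389229 reads, inside the range of the rest, and 14633 genes at an FPKM of 1 or more. Over all libraries that number was 14589 to 14932, highest in cocaine replicate 1. Cocaine replicate 2 had 8584 genes listed at 0, the most of the 12, beside 8102 to 8508 in the others. Genes without an Ensembl ID took 1.86% to 2.02% of the FPKM. The 10 most abundant other genes took 4.97% of the FPKM in cocaine replicate 2, the highest of the 12, beside 3.86% to 4.76% in the others. The part of such differences between libraries in the results was not tested. No 2 libraries of a group agreed within sampling noise, with a chi-square per degree of freedom from 9.14 to 32.5. The ATAC tracks used here, which list regions of open chromatin, had 0 regions on the mitochondrial chromosome, so accessibility there was not analysed.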

How the data were processed

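The 12 prefrontal cortex RNA libraries were analysed from 1 table of FPKM values deposited by the authors. Libraries were made from total RNA with a kit that keeps strand, per the labels' protocols. The submitters' processing notes name HISAT2, HTSeq and DESeq, without versions. No source used here gives the build, annotation or strand setting. The deposited ATAC tracks, with whole-number scores at summits, were used only to look for regions on the mitochondrial chromosome. Sample titles gave each library's group and number. The 6 nucleus accumbens libraries were not analysed here.

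Reads were recovered by scaling each library by 1 factor and finding the gene length at which all 12 values are whole reads; all 29663 genes had a solution within 0.01 reads. Tests used limma 3.58.1 (R 4.3.3), fitted to log2(FPKM + 1) with 4 group means over all 12 libraries and a trended prior variance. Genes needed an FPKM of 1 in 3 libraries, which 15326 reached, and two-sided p-values were adjusted over these by Benjamini-Hochberg. Log2 differences understate the change of low genes. The procedure was tested on simulated data. All 10 members are named, with the 2 other genes most like and the 2 least like their mean pattern. The members and lists were chosen with earlier results of these data known. Lists fixed by symbol could not be used, since 0 of the table's IDs matched the reference table (GRCr8). Alternatives changed the pseudocount, filter, scaling, weights, samples in the fit, replicate block and test.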

Additional observations from a re-analysis of the deposited data

Results flagged for a closer look

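mt-Co2 was singled out because its WIN libraries lay on opposite sides of the mean without WIN in the absence and presence of cocaine, a difference that did not pass the test. All 3 WIN libraries lay below the control mean of 8060.4 FPKM, and all 3 WIN+cocaine libraries lay above the cocaine mean of 6232. The groups themselves overlapped: WIN ran from 6730.0 to 7898 beside 7364 to 8418 in control, and WIN+cocaine from 6396 to 6769, within the 5063 to 6904 of cocaine. The interaction was 0.20 on the log2 scale, higher than in any other member, with an unadjusted limma p of 0.288 and an adjusted p of 0.654. Among the cocaine libraries, replicate 2 had 5063 FPKM beside 6904 and 6730.4 in the others. Without that library the interaction was 0.06 and WIN+cocaine against cocaine was -0.05 on the log2 scale, so the opposite directions were not seen.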

How the results depend on the processing

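No member passed an adjusted p of 0.05 under any alternative run in the 5 comparisons of groups or the interaction. In the comparison of 6 libraries against 6, 7 passed with library weights (18.3% of all genes), and leaving out replicates gave 0 to 5 (5 without WIN replicate 3, with 21.4% of all genes). Counts of members with an unadjusted p under 0.05 moved more. For cocaine against control it was 1 with no filter (22.5% of all genes) and 3 when fitted on the compared libraries alone (32.3%). Over left-out replicates it was 1 to 9, beside 18.6% to 35.1% of all genes. For WIN+cocaine against WIN it was 0 with no filter (4.24% of all genes) and 0 with the replicate block (3.67%). It was 2 after median ratio rescaling (3.65%) and 2 after rescaling to the FPKM of other genes (3.90%). It was 3 on the compared libraries alone (2.97%) and 4 with voom on recovered reads (4.12%). With library weights it was 7, where all genes went from 3.76% to 13.8%. Over left-out replicates it was 0 to 5, beside 2.34% to 14.8% of all genes. For WIN+cocaine against control it was 0 with no filter (6.79% of all genes) and 1 after quantile normalization (7.84%). It was 7 with library weights (all genes from 7.91% to 11.5%) and 8 on the compared libraries alone (12.2%). Over left-out replicates it was 0 to 8, beside 3.37% to 11.9% of all genes. For WIN+cocaine against cocaine it was 2 after quantile normalization (11.0% of all genes). For 6 against 6 it was 2 with no filter (18.2%) and 3 after quantile normalization (26.6%). Library weights put least weight on WIN replicate 3, and the cause of the changed counts was not tested. Quantile normalization sets the first ranks equal in all libraries by construction, so members that keep their rank differ by 0: the median was -0.09 for cocaine against control, and mt-Nd2 reversed to 0.051 for WIN+cocaine against WIN. In the other 20 alternatives all 10 members were lower in cocaine than in control. Some of these settings keep the cocaine and control means as they are and could not change the direction. They are the filter, the replicate block, the fit on the compared libraries alone, and each left-out WIN or WIN+cocaine library (median -0.30). As a share of recovered reads, the cocaine difference from control was -1.05 percentage points in place of -2.03, on a smaller share.

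With the replicate number as a block, 5 members still had an unadjusted limma p under 0.05 for cocaine against control (30.0% of all genes). The block changed no call of a member at an adjusted p of 0.05. The correlation of deviations between libraries with the same number ran from -0.281 to 0.196, and 4 of 12 libraries were closest to one of their own number. With at least 8924 reads behind each value, counting error was below the spread between the 3 libraries in every group, though close to it for mt-Co3 in WIN+cocaine.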
